A study of Rattus norvegicus with 9 samples.

Results

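The cells given a high dose of leech extract were set against the control cells of the same experiment, which took 6 of the 9 libraries of the series, 3 from each group. Members were chosen by group label alone, and 12150 of the 30560 genes listed had a mean of at least 1 TPM over these 6 libraries and were tested. TPM expresses a gene's transcripts, adjusted for length, as parts of 1000000 in each library, so levels may be compared between genes. All libraries came from HBZY-1, an established rat line of glomerular mesangial cells. The extract group was given, per its label, a water extract at high dose, made from lyophilized powder of the leech Poecilobdella manillensis. The control group is labelled only as control, and no dose, exposure time or vehicle is given for either group. The labels also do not say that the extract cells received, or did not receive, lipopolysaccharide (LPS), which defines the third group of the series, so a difference from control is a difference between the 2 labelled groups and is not attributed to the extract alone. The 3 LPS libraries entered no test here, and their values are given for reference.

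Mesangial cells hold the capillary loops of the kidney's filtering tuft together, contract, secrete the surrounding matrix and release cytokines when stimulated. Blood-feeding leeches are known for salivary inhibitors of thrombin and other proteases. The series title names TXNIP, a binding partner and inhibitor of thioredoxin, and NLRP3, the sensor of an inflammasome that activates caspase-1. The deposited tables carry Ensembl identifiers without gene names, and 0 of the 47357 genes of the reference table used here (GRCr8) had an Ensembl identifier to match. TXNIP, NLRP3, the markers of mesangial and other cell types and the other genes of 41 lists were therefore not analysed here, and genes are described by their levels and by at most 4 identifiers. No sequence is shown for the same reason.

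The 6 libraries separated by group. Across the tested genes, Pearson's r on log2(TPM + 1) was at least 0.976 within a group and at most 0.964 between an extract and a control library, genes not being independent replicates. The first principal component held 53.9% of the variance and placed the control libraries between -27.2 and -23.8 and the extract libraries between 24.1 and 28.5. The typical gene varied little within a group, with a median coefficient of variation of 5.15% in control and 4.65% in extract libraries. Between 11954 and 12104 genes reached 1 TPM in a library. The depth of the libraries is unknown, since TPM does not retain it. The labels call the replicates biological, without saying that they were cultured on separate days, and p-values measure only the spread between these libraries.

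About equal parts of the tested genes were called and not called, and the lack of a call does not show the lack of a difference. At an adjusted p below 0.05 (limma on 6 libraries, Benjamini-Hochberg over all tested genes), 6291 genes were called, which is 51.8% of those tested. Of these, 2741 genes were higher in the extract libraries (22.6%) and 3550 were lower (29.2%). Values of the 2 groups did not overlap for 7441 genes (61.2%), 3193 of them higher (26.3%) and 4248 lower (35%).

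Most of the called differences were small. Among called genes, 5073 (80.6%) had an estimate under 1.5-fold and 2193 were under 1.2-fold. The median log2 fold change was 0.34 in the higher and -0.33 in the lower genes, against a median standard error of 0.059. The middle 50% of all tested genes lay between -0.23 and 0.16 on the log2 scale, with 1% above 1.27 and 1% below -1.51. Fold changes on the log2(TPM + 1) scale understate the change of genes with low TPM.

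The intervals show how far the uncalled genes were bounded. Of the 5859 genes without a call, 5091 had a 95% confidence interval wholly within 1.5-fold of no change, and 2942 had one within 1.2-fold. For 294 uncalled genes the interval reached 2-fold, and these libraries do not exclude a change of that size there. Among called genes, 1041 higher and 1284 lower genes had an interval wholly beyond 1.2-fold, and 101 and 129 had one wholly beyond 2-fold. The intervals were not adjusted for the number of genes. They are on the log2(TPM + 1) scale, so for genes of low TPM they bound the ratio of TPM itself less tightly.

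**Figure D1:**
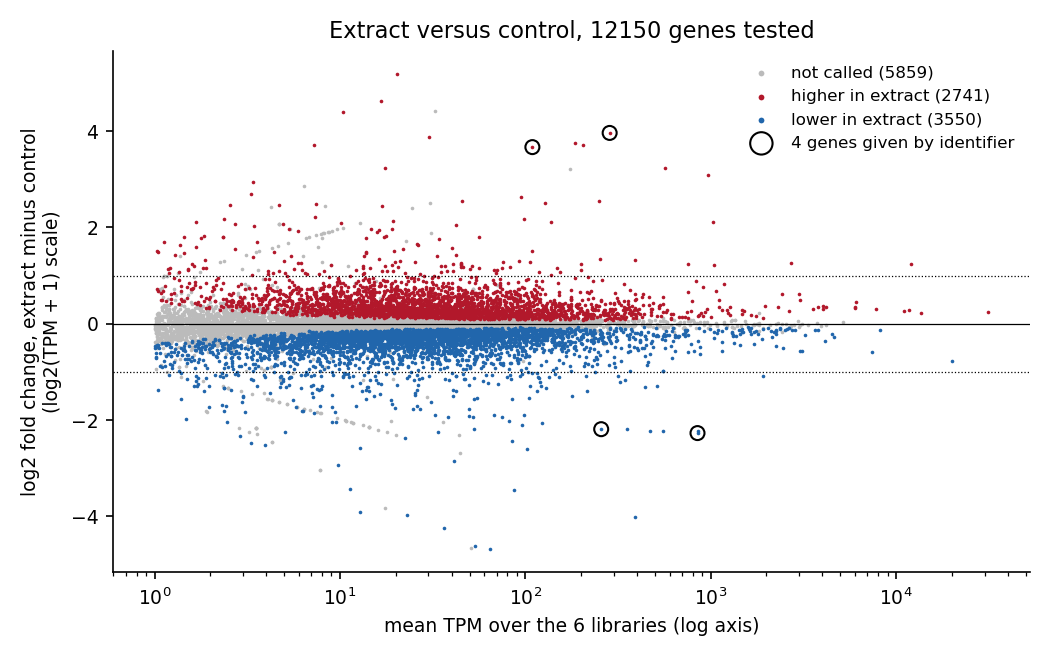
Each point is a tested gene, placed by its mean TPM over the 6 libraries (log axis) and its log2 fold change in extract minus control, with 2741 genes called higher in red, 3550 called lower in blue and dotted lines at 2-fold. Most called genes lie close to 0, and the straight runs of grey points are genes read in only some libraries of a group.

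Large changes were found in both directions. Among called genes, 152 were at least 2-fold higher (1.25% of those tested) and 215 at least 2-fold lower (1.77%), while 114 further genes differed by at least 2-fold without a call. The values did not overlap between groups for any of the 152 and for 214 of the 215, against 61.2% of all tested genes. These genes were picked for large called differences in the same libraries, so the separation is no result for them. The 152 genes had a median level of 7.25 TPM in control and 26.0 TPM in extract libraries, and the 215 genes went from a median of 21.7 TPM to 7.35 TPM. A pseudocount of 5 TPM in place of 1 left 84 higher and 108 lower genes at 2-fold, because it shrinks the changes of genes with low TPM.

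Called differences of at least 4-fold numbered 34 higher (0.28%) and 32 lower genes (0.263%), and at least 8-fold differences 12 higher (0.0988%) and 8 lower genes (0.0658%). With a pseudocount of 0.1 these became 62 and 55 genes at 4-fold and 32 and 20 at 8-fold, and with 5 they became 18 and 17 at 4-fold and 7 and 5 at 8-fold. Without control replicate 1, 20 genes were at least 8-fold lower. As a measure free of any pseudocount, the nearest extract and control libraries were compared directly in TPM. Genes listed at 0 in every library of the lower group have no such ratio and are left out of the counts that follow. In 118 genes the lowest extract library was at least 2 times the highest control library, and in 19 at least 8 times. In 182 genes the lowest control library was at least 2 times the highest extract library, and in 14 at least 8 times.

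The 2 genes with the smallest p in each direction are given by identifier, each with its value in every library. They were taken from called genes whose groups did not overlap, so neither the absence of overlap nor the small p is a result for them. ENSRNOG00000002331 was listed at 15.58, 14.76 and 14.82 TPM in the control libraries and at 201.49, 201.05 and 207.26 TPM in the extract libraries. The mean was 13.5 times higher in extract cells, at 203.3 ± 3.47 TPM against 15.1 ± 0.457 TPM (SD, n = 3), with no overlap. Its log2 fold change was 3.67 ± 0.035 (SE; limma adjusted p = 1.28e-08), and it was the ninth largest increase. The LPS libraries stood at 13.23, 13.18 and 12.08 TPM, close to the control level. This gene had 2 transcripts of at least 1 TPM, and they made up 39.8% and 60.2% of its TPM in control and 41.5% and 58.5% in extract cells, so both rose together, with log2 fold changes of 3.61 ± 0.094 and 3.57 ± 0.053 (limma adjusted p = 5.37e-06 and 7.77e-07).

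ENSRNOG00000040287 stood at 35.29, 32.43 and 32.64 TPM in control and at 558.84, 528.49 and 522.73 TPM in extract libraries. The 3 extract values lay far above the 3 control values, and the mean was 16.0 times higher, at 536.7 ± 19.4 TPM against 33.5 ± 1.59 TPM (SD, n = 3). The log2 fold change amounted to 3.96 ± 0.044 (SE; limma adjusted p = 1.87e-08). The LPS libraries were at 51.36, 44.08 and 48.41 TPM, nearer to control than to extract. One transcript carried 98.1% of this gene's TPM in control and 98.7% in extract cells.

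ENSRNOG00000070543 was abundant in control cells, at 1413.22, 1425.34 and 1382.98 TPM, and stood at 287.72, 297.6 and 286.67 TPM in extract libraries. The groups were far apart, with a mean 4.84 times lower in extract cells, 290.7 ± 6.03 TPM against 1407 ± 21.8 TPM (SD, n = 3). This gave a log2 fold change of -2.27 ± 0.027 (SE; limma adjusted p = 2.02e-08). The LPS libraries lay between the 2 groups, at 749.92, 765.85 and 858.85 TPM. The whole of its TPM came from a single transcript. Another gene had nearly the same TPM in each control and extract library, and whether the 2 share reads was not tested.

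ENSRNOG00000070554 fell from 413.48, 432.56 and 419 TPM in control to 94.34, 90.4 and 90.05 TPM in extract libraries. The mean was 4.60 times lower in extract cells, at 91.6 ± 2.38 TPM against 421.7 ± 9.82 TPM (SD, n = 3). The absence of overlap was a condition of its choice. Its log2 fold change was -2.19 ± 0.032 (SE; limma adjusted p = 3.29e-08). The LPS libraries were at 226.07, 192.79 and 284.05 TPM, between the 2 groups and more scattered than either. Its 2 transcripts held 73.7% and 26.3% of its TPM in control and 77.9% and 22.1% in extract cells, and both were lower, with log2 fold changes of -2.11 ± 0.036 and -2.40 ± 0.075 (limma adjusted p = 9.75e-07 and 9.68e-06).

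**Figure D2:**
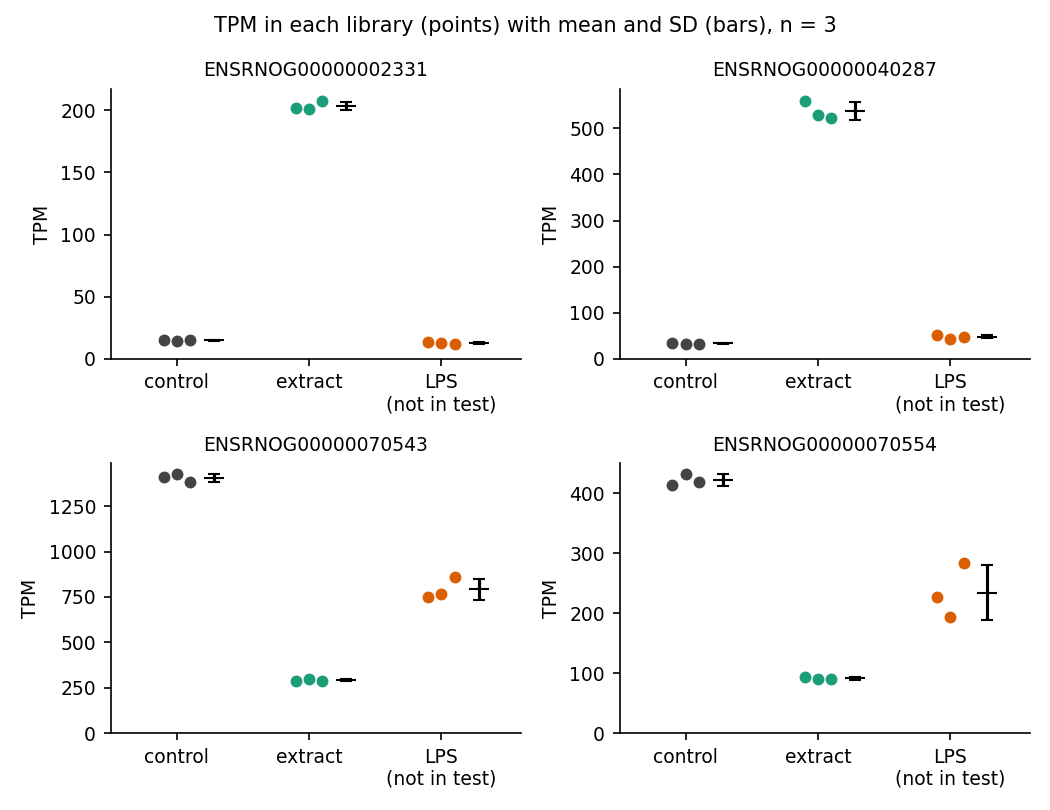
TPM of the 4 genes given by identifier in each control, extract and LPS library (points), with the mean and SD of the 3 libraries beside them; the LPS libraries entered no test. In the upper genes the extract libraries lie far above both other groups, and in the lower genes they lie below both.

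The genes with the largest fold changes spanned a wide range of levels. The 20 genes with the largest called increases had a median of 7.78 TPM in control and 68.1 TPM in extract libraries, with control levels from 0 to 203.2 TPM and log2 fold changes from 2.47 to 5.18. For the 20 with the largest called decreases the median went from 48.7 TPM to 3.68 TPM, with control levels from 5.49 to 1407 TPM and log2 fold changes from -4.67 to -2.25. In LPS libraries the median level was 59.8 TPM for the first 20 genes and 31.4 TPM for the second. The LPS mean was above the control mean in 17 of the first 20 genes and in 3 of the second 20. The same control libraries were used to pick these genes, and the share over all tested genes is not given here. Genes were picked for these extremes, so the values are a description, and on the log2(TPM + 1) scale a large decrease needs a higher starting level than a large increase.

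The 12 genes at least 8-fold higher differed widely in their LPS levels. The gene with the second largest increase was listed at 0.31, 0.56 and 0.28 TPM in control, at 36.39, 34.09 and 28.83 TPM in extract and at 97.89, 84.36 and 98.94 TPM in LPS libraries. It was close to silent in control cells and lay well below the LPS level in extract cells. A more abundant gene among the 12 stood at 191.81, 225.31 and 192.46 TPM in control, 1955.49, 1745.48 and 1527.87 TPM in extract and 3664.1, 3803.16 and 3799.67 TPM in LPS libraries. Against these, the tenth gene of the 12 was at 2.84, 2.07 and 2.76 TPM in control, 33.61, 30.98 and 33.16 TPM in extract and 2.24, 1.98 and 1.86 TPM in LPS libraries, high in the extract group alone.

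Among the 8 genes at least 8-fold lower, the largest decrease went from 117.03, 135.05 and 124.56 TPM in control to 3.41, 4.63 and 3.88 TPM in extract libraries, a log2 fold change of -4.67 ± 0.094 (SE). Its LPS libraries were at 29.26, 40.52 and 34.36 TPM. The most abundant of the 8 fell from 693.08, 805 and 704.74 TPM to 46.78, 40.49 and 46.53 TPM, with LPS libraries at 182.24, 253.88 and 205.26 TPM. In both genes the LPS libraries lay between the other groups. One of the 8 was unsteady, at 36.2, 22.41 and 65.12 TPM in control and 13.9, 0 and 0 TPM in extract libraries, a log2 fold change of -3.97 ± 1.02 (SE). Further down the list, a gene at 19.01, 25.47 and 23.71 TPM in control and 3.18, 2.86 and 2.77 TPM in extract libraries was at 38.96, 53.3 and 52.06 TPM in LPS libraries, above both.

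Few genes switched between silent and expressed. Among all 30560 genes, 3 were listed at 0 in every control library while every extract library had 1 TPM or more, and 2 genes did the reverse. One of the 3 was at 3.31, 3.74 and 3.01 TPM in extract libraries and at 0 in all LPS libraries. Another was at 6.19, 8.41 and 5.66 TPM in extract and at 11.86, 7.99 and 12.06 TPM in LPS libraries. With a looser limit, 60 genes were below 1 TPM in every control library and at 1 TPM or more in every extract library, and 92 the reverse. Of these, 38 and 53 were called, against 22.6% higher and 29.2% lower among all tested genes, though these genes were picked for their direction. Genes with a mean below 1 TPM over the 6 libraries were not tested and cannot carry a call. Only 6 genes went from below 1 TPM in every control library to 5 TPM or more in every extract library, and 4 did the reverse. Of those 4, the one with the highest control level fell from 24.13, 25.75 and 24.51 TPM to 0.96, 0.51 and 0.67 TPM.

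Calls were spread over all levels of expression. Among 2175 genes with a mean of 1 to 5 TPM, 9.84% were higher and 17.2% lower in extract cells. Between 20 and 100 TPM, 27.8% of 4550 genes were higher and 32.5% lower, and at 1000 TPM or more, 26.5% of 147 were higher and 40.8% lower. The precision rose with level, as the median standard error fell from 0.13 on the log2 scale at 1 to 5 TPM to 0.032 at 1000 TPM or more. The typical size of the difference was more even, with a median absolute log2 fold change of 0.23 in the lowest band and 0.16 in the highest. Changes of at least 2-fold made up 4.23% of the genes at 1 to 5 TPM, 2.26% at 20 to 100 TPM and 3.40% at 1000 TPM or more.

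Which direction held more calls depended on how the libraries were scaled. The median log2 fold change over all tested genes was -0.041 with TPM as deposited, 0.0013 after rescaling by the median of ratios and -0.0042 after quantile normalization. Lower genes made up 56.4%, 47.4% and 49.7% of the calls in these 3 cases. Between 20 and 100 TPM the 1267 higher and 1480 lower genes became 1543 and 1200 after rescaling, and the excess turned. At 1 to 5 TPM, 214 higher and 374 lower genes became 241 and 330, still with more lower genes, but 289 and 253 with quantile normalization. At 1000 TPM or more, 39 higher and 60 lower genes became 43 and 44 after rescaling and 38 and 54 with quantile normalization. After median-of-ratios rescaling the 152 genes at least 2-fold higher and the 215 at least 2-fold lower all kept their call and direction.

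**Figure D3:**
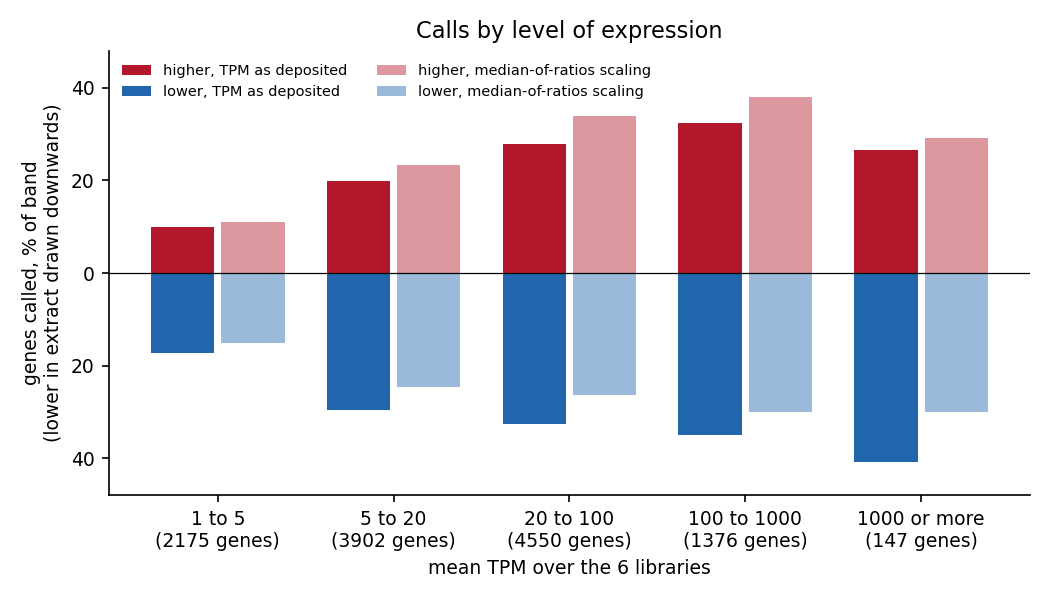
Bars give the percent of tested genes called higher (up) or lower (down) in extract cells within 5 bands of mean TPM, with TPM as deposited (dark) and after median-of-ratios scaling (pale). In the band from 20 to 100 TPM, 27.8% were higher and 32.5% lower with TPM as deposited, and the larger of the 2 changes sides after scaling.

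The shift in TPM between the groups was larger than that between replicates. Summed over genes, 98699 TPM of the 1000000 in a library were gained by genes with a higher mean in extract cells, which is 9.87%, and as much was lost by the others. Between single libraries the shift was 97337 to 105139 TPM from any control to any extract library, and 22371 to 33503 TPM between 2 libraries of one group. The gain was carried by fewer genes than the loss. In all, 39 genes made up 50% of the gain and 120 genes 50% of the loss, and the first 10 genes held 30.4% of the gain and 22.6% of the loss.

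The largest gain in TPM was in a gene at 7483.53, 6765.72 and 7221.45 TPM in control and 17001.8, 18024.6 and 15536.8 TPM in extract libraries, a log2 fold change of 1.23 ± 0.060 (SE; limma adjusted p = 7.36e-06). Its mean in LPS libraries was higher still, at 24047 TPM. The largest loss was in a gene at 26107, 24286.8 and 25393.8 TPM in control and 14408.5, 15730.8 and 14161.7 TPM in extract libraries, a log2 fold change of -0.78 ± 0.047 (SE; limma adjusted p = 1.77e-05). Its mean in LPS libraries was 19113 TPM, between the 2 groups. Together these 2 genes, neither overlapping between groups, rose by 9698 TPM and fell by 10496 TPM. The other highly expressed genes moved less in TPM than these 2. Of the 50 most abundant genes, with means from 2427 to 31362 TPM, 18 were higher and 17 lower, against 22.6% and 29.2% of all tested genes. Among the 50, 2 were called at 2-fold or more, against 1.25% higher and 1.77% lower over all tested genes. The log2 fold changes of the 50 ran from -0.78 to 1.27.

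**Figure D4:**
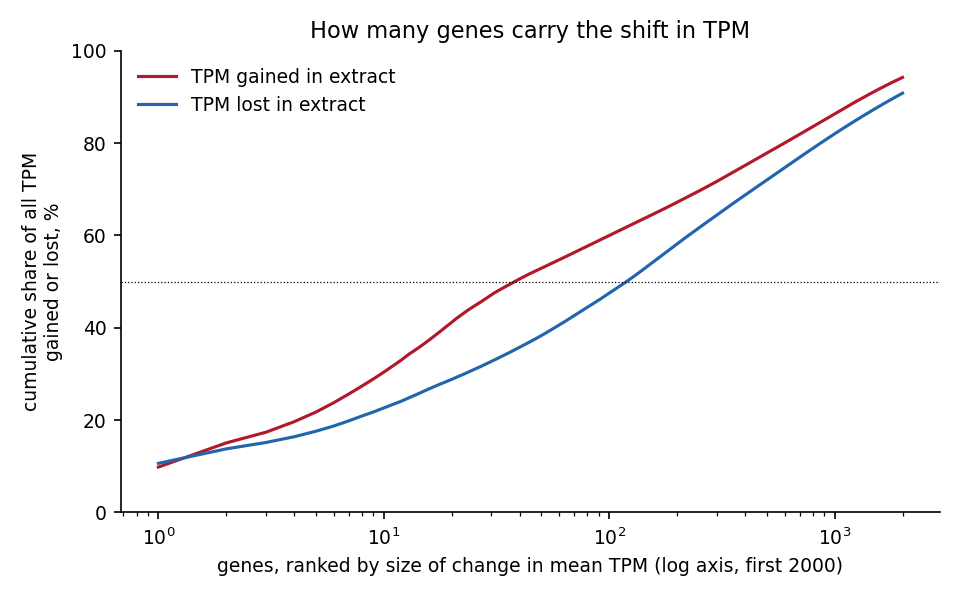
Cumulative share of all TPM gained (red) and lost (blue) in extract cells over genes ranked by the size of their change in mean TPM (log axis). The red curve crosses 50% at 39 genes and the blue one at 120.

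At the level of transcripts, 19394 of the 54991 listed had a mean of at least 1 TPM and were tested. Of these, 2600 were higher (13.4%) and 3286 lower (16.9%) in extract libraries with TPM as deposited. The larger direction changed here too, with 3108 higher and 2749 lower after median-of-ratios scaling and 2946 and 2899 after quantile normalization. The change reached 2-fold in 248 higher (1.28%) and 342 lower transcripts (1.76%). The median standard error of 0.10 on the log2 scale was larger than that of genes. In genes with 2 or more tested transcripts, 4903 in all, a gene's call was often not matched by each of its transcripts. Of the 2840 such genes that were called, 422 had every tested transcript called in the gene's direction and 767 had none called. A further 248 genes without a call had a called transcript.

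In 64 genes, 1.31% of those with 2 or more tested transcripts, one transcript was called higher and another lower. Of these genes 16 were higher, 20 lower and 28 not called as a whole, a split near that of all tested genes, 22.6% higher and 29.2% lower. The number fell to 36 to 41 when control replicate 1 or any one of the 3 extract replicates was left out, and to 42 with no filter on level.

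Relative use of transcripts, each transcript's percent of its gene's TPM, could be compared in 4096 genes of at least 5 TPM. A shift of 10 points or more in the share of some transcript was called in 9 genes, or 0.22% (limma, adjusted p below 0.05), and 297 genes did at an unadjusted p below 0.05. The 9 genes comprised 4 that were higher as a whole, 2 that were lower and 3 that were not called. Over all tested genes 22.6% were higher and 29.2% lower. In 4 of the 9 a different transcript led in every extract library than in every control library. The same held for 27 of all 4096 genes compared, and the 9 were picked for their shifts. The count fell to 5 without control replicate 2 and to 3 without extract replicate 2, and was 24 in a fit of all 9 libraries.

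One gene showed an exchange between 2 transcripts. A transcript that made up 9.70%, 7.65% and 9.21% of the gene's TPM in control libraries made up 70.2%, 77.5% and 71.9% in extract libraries, a shift of 64.3 ± 2.34 points (SE; limma adjusted p = 3.82e-04), while the other went from a mean share of 91.1% to 26.8%. The gene as a whole was higher, from 12.0 to 40.4 TPM, and the leading transcript's share in LPS libraries was 90.8%, 92.0% and 89.9%. A second gene, lower as a whole from 77.4 to 46.4 TPM, had a transcript at 75.4%, 83.5% and 70.7% in control and 37.1%, 41.9% and 37.4% in extract libraries, and at 71.9%, 74.3% and 79.1% in LPS libraries. The shares of these transcripts did not overlap between extract and control libraries, which is no result for transcripts picked for a called shift.

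In another gene the total was level while the shares shifted. It stood at 9.50 TPM in control and 9.09 TPM in extract cells, a log2 fold change of -0.058 ± 0.053 (SE; limma adjusted p = 0.388). One of its transcripts went from 63.4%, 60.5% and 58.1% in control to 30.3%, 31.7% and 33.3% in extract libraries. Conversely, a gene that was higher, from 25.7 to 165.0 TPM, had a transcript that went from 18.6%, 17.8% and 16.5% to 46.5%, 47.8% and 46.8%. In 4 of the 9 genes the transcript was listed at 0 in all libraries of one group. The gene with the largest shift was at 0.147 TPM in control, too low for its shares there to be read. A requirement of 5 TPM in each group, chosen after seeing the data, gave 7 genes.

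**Figure D5:**
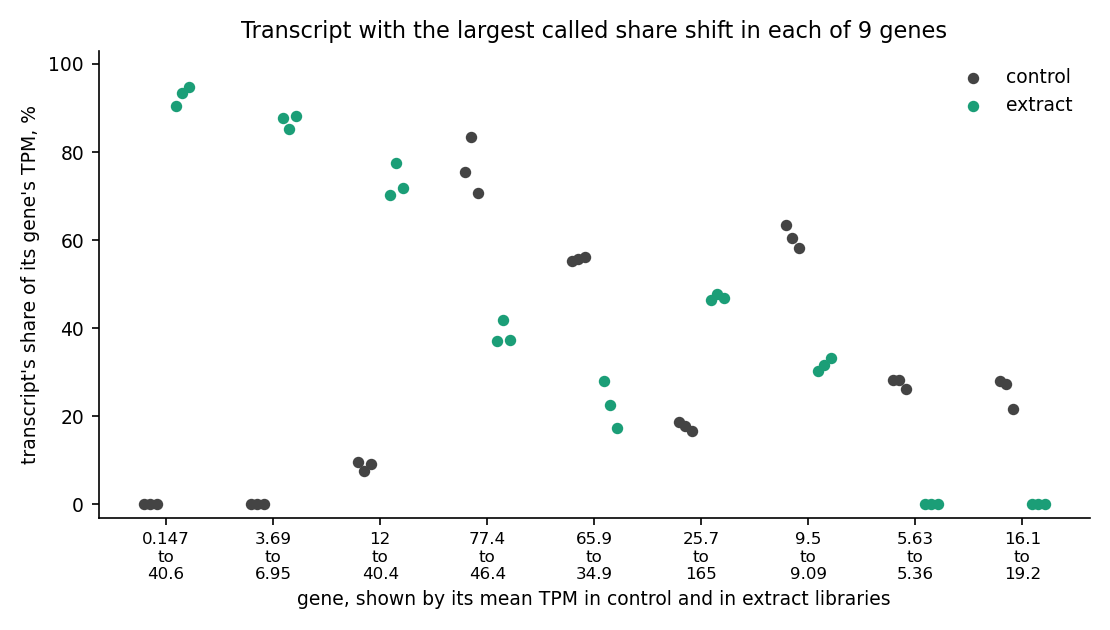
For each of the 9 genes with a called share shift, the transcript with the largest shift is plotted as its percent of the gene's TPM in each control (grey) and extract (green) library, with the gene's mean TPM in both groups below. Control and extract points do not overlap in any of the 9, which were picked for their called shifts, so this is no result.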

How the data were processed

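The authors deposited TPM per gene and per transcript, rounded to 2 decimals, and each library sums to 1000000. Tools listed in the submitters' processing notes are HISAT2 2.1.0, RSEM 1.3.3 and fastp, with no roles or settings; genome build, annotation and strandedness were not given in the sources used here. Columns were assigned to samples by the code that opens each title.

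Extract and control libraries only were fitted with limma 3.58.1 in R 4.3.3 on log2(TPM + 1), for features whose mean over the 6 libraries was 1 TPM or more, with a mean-variance trend and 4 residual degrees of freedom. Variances were moderated across features by limma, so p-values and intervals rest on more degrees of freedom than these 4. Tests were two-sided, and an adjusted p below 0.05 is a call. The procedure was tested on simulated data. Runs of consecutive transcripts were taken as a gene's where their TPM added up to that of the gene in each of the 9 libraries, with a tolerance of 0.006 TPM per rounded value; each of the 12150 tested genes was linked. Shares were fitted without a trend, for transcripts with a mean share of 10% to 90%. Of the tested genes, 53 had values identical to another gene's in every library and may be copies that share reads. The genes given by identifier are the 2 with the smallest p in each direction among called genes whose groups did not overlap. Other genes were described from ranked lists after their values were seen. The comparison and lists were chosen with earlier results of these data known.

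The alternatives were other pseudocounts, filters and scalings, the replicate number as a block, a fit of all 9 libraries, no trend, and leaving out each library in turn.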

Additional observations from a re-analysis of the deposited data

How the results depend on the processing

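The counts of 2741 higher and 3550 lower genes and of 2600 higher and 3286 lower transcripts stayed within 1.5 times under every alternative run. With 1 library left out, they ranged from 2374 to 2580 and 3122 to 3300 genes and from 1969 to 2268 and 2565 to 2714 transcripts. The larger direction changed with scaling: median-of-ratios scaling gave 3263 higher and 2946 lower genes and 3108 and 2749 transcripts, and quantile normalization 3085 and 3054 genes and 2946 and 2899 transcripts. The counts of genes at least 2-fold changed left that range with a pseudocount of 5, at 84 higher and 108 lower, and ranged from 148 to 164 and 204 to 228 with 1 library left out. The number of genes with a transcript share change was 9, against 24 in the fit of all 9 libraries and 3 to 9 with 1 library left out; the cause was not tested. Replicate numbers did not pair the libraries: deviations from the group mean correlated at -0.058 to -0.0012 between same-numbered and at -0.024 to 0.052 between differently numbered libraries. With the replicate block, 2519 genes were higher and 3280 lower, 154 and 216 of them at least 2-fold, 2088 transcripts were higher and 2599 lower, 37 genes in place of 64 had transcripts called in opposite directions, and 3 genes had a share change. The 4 genes given by identifier kept direction and call under all alternatives run for them. The gene lists and promoter motifs were not run. As depth is unknown, too few reads and no change could not be told apart in uncalled genes of low level.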

Other observations

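A set of genes was read in only some libraries of a group. Of the tested genes, 146 were listed at 0 in one library of a group and at 5 TPM or more in another library of the same group. This held for 104 within control and 66 within extract libraries. Only 1 of the 146 was called, against 51.8% of all tested genes, which follows from picking genes with a wide spread within a group. Of the 114 genes that differed by at least 2-fold on the fitted scale without a call, 105 were of this kind. Of the tested genes, 69 were above 0 in 1 library only, with a median of 38.6 TPM there and a highest value of 267.5 TPM. Values of this kind form the straight runs of uncalled points in the plot of level against fold change.

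A group of abundant genes stands close together in the plot of level against fold change. With a mean of at least 100 TPM and a log2 fold change between -2.3 and -2.1, limits set after seeing the values that fix how alike the fold changes are, 6 genes were found, ENSRNOG00000070543 and ENSRNOG00000070554 among them. Their control means ran from 421.7 to 1407 TPM, and their LPS means from 234.3 to 791.5 TPM. One of the others, at 1424.63, 1404.63 and 1387.89 TPM in control and 307.46, 301.31 and 285.71 TPM in extract libraries, was close to ENSRNOG00000070543 in these 6 libraries and less so in LPS replicate 2, at 667.79 against 765.85 TPM. Whether these genes share reads was not tested.

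The control libraries were more spread along the second principal component, which held 15.3% of the variance, than the extract libraries. Control replicates 1, 2 and 3 lay at 21.6, 3.79 and -24.5, and the extract libraries between -7.61 and 3.55.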
